A study of Arabis alpina with 23 samples.

Results

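The level of 3 genes named after the vernalization and Polycomb pathways of Arabidopsis was followed in Arabis alpina, a perennial crucifer. The genes are Aa_G183140 (described as vernalization insensitive 3-like), Aa_G108140 (a VRN1-like B3 factor) and Aa_G116870 (embryonic flower 1), chosen by identifier from the 34220 gene identifiers of the deposited table. All 3 passed the filter on low counts, which kept 21414 genes. RNA came from young axillary buds (AB) and from the shoot apical meristem (SAM) of plants of the Pajares accession, which carried no transgene or mutation that the labels mention. The SAM was harvested with 1 leaf primordium, and each bud also had a single primordium. Stage 1 was 4 weeks of growth and stage 2 was 8 weeks, in a chamber at 24 °C by day and 18 °C by night. Stage 3 followed 4 weeks of cold at 4 °C and stage 4 followed 7 weeks, with 16 h of light. Each of the 8 groups had 3 biological replicates, except AB stage 1 with 2, and a replicate pooled 120 to 150 buds or meristems. Because no plants of the same age were kept out of the cold among these groups, cold and age cannot be told apart.

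Vernalization is the process by which long cold makes a plant competent to flower. In Arabidopsis, cold switches on VIN3, a protein with a PHD finger, which joins its constant relative VRN5 and the Polycomb complex PRC2 to silence FLC, a repressor of flowering. VRN1 is a B3 protein that binds DNA and is needed to keep FLC silent afterwards, and EMF1 is a plant Polycomb protein that keeps floral genes off during vegetative growth. In Arabis alpina the counterpart of FLC is PEP1, which is silenced during cold and returns in warmth.

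The annotation pairs the genes with Arabidopsis locus codes, and for the first gene the code and the description differ. Aa_G183140 carries the alias At3g24440, which is the Arabidopsis locus of VRN5 and not of VIN3. It is called VRN5 here after that alias, and its identity was not tested. It lies on chromosome 3 at 17794429 to 17796524 on the plus strand of the version 5 assembly, with 3 exons and a coding length of 1869 bp. Aa_G108140 carries At3g18990, the VRN1 locus, and lies on chromosome 3 at 14189998 to 14192345 on the minus strand. It has 5 exons, and a first intron of 1030 bp separates an exon of 60 bp from the other exons. Aa_G116870 carries At5g11530, the EMF1 locus, and lies on chromosome 8 at 7577366 to 7581109 on the plus strand. It has 6 exons, of which the last has 1665 bp of the coding length of 3096 bp. No other gene model overlapped any of the 3, and each was placed at 1 locus. The nearest neighbour was 393 bp from VRN1, on the same strand.

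Mapped reads counted to genes numbered 12247645 to 26218502 per library. The meristem marker STM was present in all libraries, at 101.5 to 187.6 CPM in the AB and 118.5 to 214.4 CPM in the SAM, where CPM is the count relative to the library size after scaling by the trimmed mean of M values (TMM). Summed over 22 genes for light-harvesting chlorophyll proteins, of which 20 were tested, the level was 4639 to 7388 CPM in the AB and 5352 to 10496 CPM in the SAM. At stage 1 it was 5180 to 6690 CPM in the AB and 8272 to 10496 CPM in the SAM. AP1, a marker of floral meristems, was at 0 in every library of stages 1 to 3, at 1.06 to 2.20 CPM in AB stage 4 and at 20.3 to 51.3 CPM in SAM stage 4. LFY, another floral marker, was at 1.19 to 2.40 CPM in the AB of stages 1 to 3 and 29.4 to 41.5 CPM at stage 4. In the SAM it was at 5.47 to 6.71 CPM at stages 1 and 2, 14.6 to 24.2 CPM at stage 3 and 111.67 to 166.03 CPM at stage 4. WUS and CLV3, which mark the centre of the meristem, were both low. WUS was at 5.58 to 8.94 CPM in the AB of stages 1 to 3, above the 0.923 to 4.47 CPM of the SAM at those stages. At stage 4 WUS was at 6.84 to 8.17 CPM in the AB and 6.10 to 6.51 CPM in the SAM. CLV3 was at 0.167 to 1.73 CPM over all libraries. Summed over 4 genes described as the phloem transporter SUC2, the level was 48.2 to 55.2 CPM in the AB of stages 1 and 2. It was 40.5 to 51.7 CPM in AB stage 3 and 29.6 to 32.6 CPM in AB stage 4, where VRN5 was highest. In the SAM it was 33.4 to 36.8 CPM at stages 1 and 2. At stages 3 and 4 of the SAM the ranges were 37.9 to 44.8 CPM and 29.7 to 33.6 CPM. The part of these markers in the results was not tested. In bulk samples of this kind, fewer cells of a type and less RNA per cell cannot be told apart.

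The 3 genes differed in level, and the groups differed less in VRN5 and VRN1 than in EMF1. On the deposited TPM scale, which corrects for length and so allows genes to be compared, VRN1 averaged 113.6 TPM, VRN5 22 TPM and EMF1 5.43 TPM over the 23 libraries. The libraries of the 3 genes did not overlap on that scale, with 86.7 to 137.6 TPM for VRN1, 18.7 to 26.1 TPM for VRN5 and 3.40 to 8.76 TPM for EMF1. The highest group mean was 1.33 times the lowest for VRN5, 1.28 times for VRN1 and 1.83 times for EMF1. The log2 range of the group means was 0.41, 0.35 and 0.88, against a median of 0.70 over all genes tested. Of all genes tested, 20.7% had a smaller range than VRN5, 14.2% a smaller one than VRN1 and 60.8% a smaller one than EMF1. Such a range also holds noise between replicates, whose part was not tested. The biological coefficient of variation was 6.13% for VRN5, 7.30% for VRN1 and 13.5% for EMF1.

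**Figure D1:**
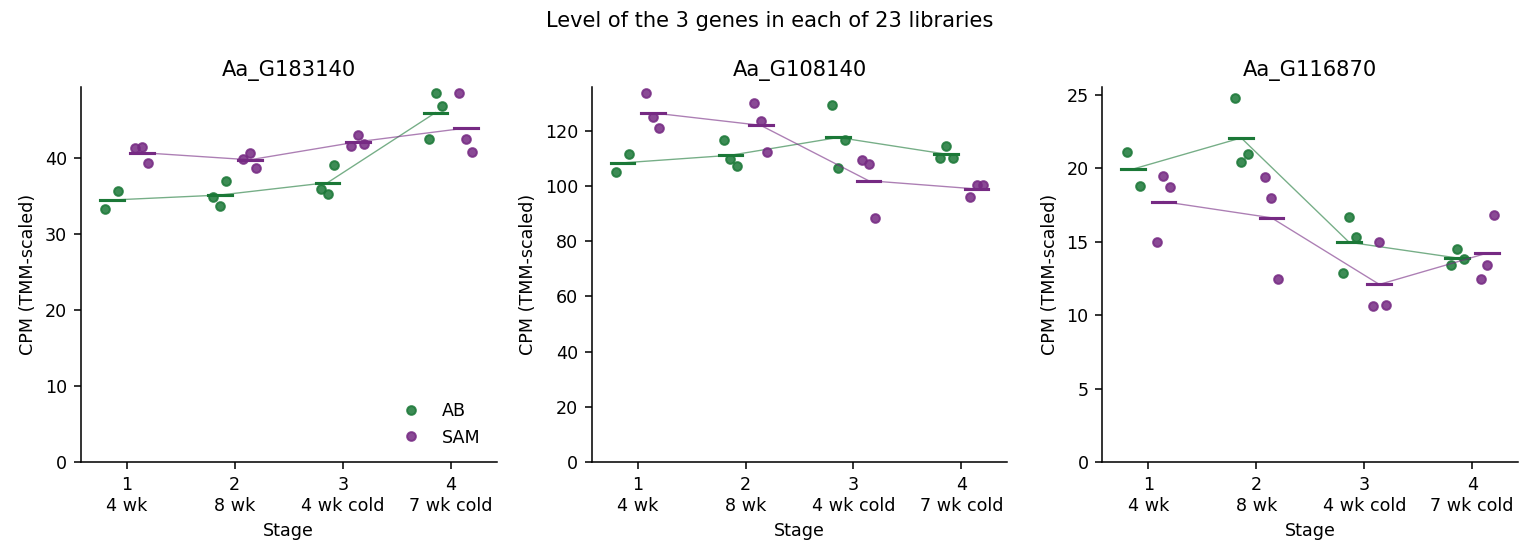
Level of VRN5 (Aa_G183140), VRN1 (Aa_G108140) and EMF1 (Aa_G116870) in each library, in TMM-scaled CPM on axes that start at 0, by stage. Points are libraries (green AB, purple SAM) and short bars are group means: for VRN5 the AB lies below the SAM at stages 1 to 3 and reaches 45.9 CPM at stage 4, against 43.9 CPM in the SAM.

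VRN5 rose in the buds late in the cold. Before that its bud libraries lay below those of the meristem, a difference called at stages 1 and 3 and not at stage 2. At stage 1, VRN5 stood at 33.3 and 35.6 CPM in the AB libraries and at 41.3, 41.4 and 39.3 CPM in the SAM libraries. At stage 2 it was 34.8, 33.6 and 36.9 CPM in the AB and 39.9, 40.6 and 38.7 CPM in the SAM. After 4 weeks of cold it was 35.9, 35.2 and 39.1 CPM in the AB and 41.5, 43.0 and 41.8 CPM in the SAM. In each of these 3 stages every AB library was below every SAM library. After 7 weeks of cold the AB libraries stood at 42.5, 48.5 and 46.8 CPM and the SAM libraries at 48.5, 42.5 and 40.7 CPM, and the groups overlapped. The AB libraries of stage 4 were all above those of stages 1 to 3.

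Against the SAM, VRN5 (Aa_G183140) in the AB was lower by edgeR's quasi-likelihood test with Benjamini-Hochberg adjustment at stage 1, with a log2 difference of -0.24 ± 0.08 (SE; adjusted p = 0.0267). It was also lower at stage 3, at -0.20 ± 0.07 (edgeR adjusted p = 0.0319). At stage 2 the difference was -0.18 ± 0.07 (edgeR adjusted p = 0.0543) and at stage 4 it was 0.06 ± 0.07 (edgeR adjusted p = 0.714). The stage 1 call was lost in 7 of 11 alternatives and the stage 3 call in 11 of 13. At stage 1 the edgeR adjusted p became 0.227 and 0.0545 when AB replicates 1 and 2 were left out in turn, and 0.0913 and 0.0950 when SAM replicates 1 and 2 were. At stage 3 it became 0.122 and 0.114 when AB replicates 1 and 2 were left out in turn, and 0.0542, 0.162 and 0.108 for SAM replicates 1, 2 and 3. At stage 3, where same-numbered AB and SAM libraries deviated together, the fit of those libraries with the replicate number as a block gave -0.18 (edgeR adjusted p = 0.142).

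In the buds, VRN5 (Aa_G183140) rose from stage 3 to stage 4 by 0.32 ± 0.07 on the log2 scale (edgeR adjusted p = 0.000964), a fold of 1.25. Over the whole cold, from stage 2 to stage 4, it rose by 0.39 ± 0.07 (edgeR adjusted p = 0.000131), a fold of 1.31. Both calls stood under every alternative tried, with log2 values of 0.25 to 0.37 and of 0.34 to 0.44 as single libraries were left out. The authors' deposited table gives a log2 fold change of 0.326 for the step from stage 3 to stage 4 in the AB, with a false discovery rate of 0.0162. In the SAM the stage 2 to 4 difference was 0.14 ± 0.07 (edgeR adjusted p = 0.123). The SAM libraries of the stages were only just apart, the lowest of stage 4 at 40.7 CPM and the highest of stage 2 at 40.6 CPM. The difference between the tissues in the step from stage 3 to stage 4 was 0.26 ± 0.10 and did not pass the threshold (edgeR adjusted p = 0.0560). It passed without AB stage 3 replicate 3, AB stage 4 replicate 1 or SAM stage 4 replicate 1, with 0.31, 0.31 and 0.30 (edgeR adjusted p = 0.0307, 0.0290 and 0.0271). SAM stage 4 replicate 1, the SAM library highest in VRN5, was also the deepest library of the series.

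In order of mean level, VRN5 stood at 45.9 ± 3.11 CPM (SD, n = 3) in AB stage 4, 43.9 ± 4.09 CPM in SAM stage 4, 42.1 ± 0.831 CPM in SAM stage 3, 40.7 ± 1.22 CPM in SAM stage 1 and 39.7 ± 0.924 CPM in SAM stage 2. The AB of stages 3, 2 and 1 followed at 36.8 ± 2.06, 35.1 ± 1.64 and 34.4 ± 1.63 CPM, the last with n = 2. Neighbours in this order had overlapping libraries except SAM stage 3 and SAM stage 1.

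VRN1 (Aa_G108140) fell in the meristem during the cold and did not pass the test in any step in the buds. At stage 1 it stood at 105.2 and 111.5 CPM in the AB libraries and at 133.4, 125.0 and 120.8 CPM in the SAM. At stage 2 it was 116.5, 109.6 and 107.1 CPM in the AB and 130.0, 123.6 and 112.2 CPM in the SAM. The AB was below the SAM in every library at stage 1, and the groups overlapped at stage 2. After 4 weeks of cold VRN1 was at 129.4, 106.5 and 116.6 CPM in the AB and at 109.3, 107.8 and 88.5 CPM in the SAM. After 7 weeks it was at 110.01, 114.42 and 109.94 CPM in the AB and at 96.0, 100.2 and 100.4 CPM in the SAM. At stage 3 the groups still overlapped, and at stage 4 every AB library was above every SAM library.

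In the SAM, VRN1 (Aa_G108140) fell from stage 2 to stage 3 by 0.26 ± 0.08 on the log2 scale (edgeR adjusted p = 0.0234). Between stages 2 and 4 it fell by 0.30 ± 0.08 (edgeR adjusted p = 0.00579), to 0.811 of the earlier level, and this call stood under every alternative, with log2 values of -0.36 to -0.25 as single libraries were left out. Leaving out replicate 1 or 2 of SAM stage 2 ended the call of the step to stage 3, at -0.21 and -0.25 (edgeR adjusted p = 0.108 and 0.0592), and so did leaving out replicate 3 of SAM stage 3, at -0.17 (edgeR adjusted p = 0.144). SAM stage 3 replicate 3, at 88.5 CPM the lowest of all libraries for VRN1, was also the shallowest library of the series. In the AB the stage 2 to 4 difference was 0.01 ± 0.08 (edgeR adjusted p = 0.965), with an interval of 2 SE on either side from -0.16 to 0.17. The difference between the tissues over stages 2 to 4 was not tested as such for any of the 3 genes. The difference between the tissues in the step from stage 2 to stage 3 was 0.34 ± 0.11 and was not called (edgeR adjusted p = 0.0884).

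The sign of the bud to meristem difference of VRN1 (Aa_G108140) was not the same before and during the cold. It was -0.22 ± 0.09 at stage 1 (edgeR adjusted p = 0.0628) and -0.13 ± 0.08 at stage 2 (edgeR adjusted p = 0.199), neither of which was called. At stage 3 the AB was higher by 0.20 ± 0.08 (edgeR adjusted p = 0.0443), and at stage 4 the difference was 0.17 ± 0.08 (edgeR adjusted p = 0.283). Leaving out AB replicate 1 or 3 of stage 3 ended the stage 3 call, at 0.14 and 0.21 (edgeR adjusted p = 0.191 and 0.0681), as did leaving out SAM replicate 3, at 0.15 (edgeR adjusted p = 0.143). With the replicate number as a block in the libraries of stage 3 alone it was 0.23 (edgeR adjusted p = 0.0806).

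The group means of VRN1 ran from 126.4 ± 6.42 CPM (SD, n = 3) in SAM stage 1 and 121.9 ± 9.01 CPM in SAM stage 2, through 117.5 ± 11.5, 111.5 ± 2.57, 111.1 ± 4.89 and 108.3 ± 4.45 CPM (the last with n = 2) in the AB of stages 3, 4, 2 and 1, to 101.9 ± 11.6 CPM in SAM stage 3 and 98.9 ± 2.50 CPM in SAM stage 4. The SAM thus held both the highest and the lowest means. All neighbours in this order had overlapping libraries.

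EMF1 (Aa_G116870) was called lower at stage 3 than at stage 2 in both tissues, though the SAM libraries of those stages overlapped. At stage 1 it stood at 21.1 and 18.8 CPM in the AB libraries and at 15, 19.5 and 18.7 CPM in the SAM. At stage 2 it was 24.8, 20.4 and 21 CPM in the AB and 19.4, 18.0 and 12.5 CPM in the SAM. The groups overlapped at stage 1, and at stage 2 every AB library was above every SAM library. After 4 weeks of cold it was 12.9, 16.7 and 15.3 CPM in the AB and 10.6, 15 and 10.7 CPM in the SAM. After 7 weeks it was 13.4, 14.5 and 13.8 CPM in the AB and 12.5, 13.4 and 16.8 CPM in the SAM. The AB and SAM libraries overlapped at both cold stages, and all AB libraries in the cold were below all those before it. This was the least abundant of the 3 genes, with 129 to 364 reads per library, and the one with the largest spread between replicates, a biological coefficient of variation of 13.5% against 6.13% for VRN5 and 7.30% for VRN1.

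From stage 2 to stage 3, EMF1 (Aa_G116870) fell by 0.56 ± 0.16 on the log2 scale in the AB (edgeR adjusted p = 0.0169) and by 0.47 ± 0.16 in the SAM (edgeR adjusted p = 0.0434). Between stages 2 and 4 it fell by 0.67 ± 0.16 in the AB (edgeR adjusted p = 0.00174), to 0.630 of the earlier level, and this call stood under every alternative, at -0.72 to -0.58 as single libraries were left out. In the SAM the stage 2 to 4 difference was -0.23 ± 0.16 (edgeR adjusted p = 0.285), at -0.40 to -0.11 as single libraries were left out. Leaving out replicate 1 of AB stage 2 or replicate 1 of AB stage 3 ended the call of the AB step, at -0.46 and -0.45 (edgeR adjusted p = 0.0773 and 0.0911). The SAM step was likewise not called when replicate 1 or 2 of stage 2 was left out, at -0.34 and -0.41 (edgeR adjusted p = 0.197 and 0.125), or replicate 1 or 3 of stage 3, at -0.37 and -0.39 (edgeR adjusted p = 0.166 and 0.146). The difference between the tissues in this step was -0.09 ± 0.23 (edgeR adjusted p = 0.858), with an interval of 2 SE from -0.56 to 0.37, and in the step from stage 3 to stage 4 it was -0.34 ± 0.23 (edgeR adjusted p = 0.283), at -0.56 to -0.21 as single libraries were left out.

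Between the tissues, EMF1 (Aa_G116870) was called at no stage by edgeR. The AB minus SAM difference was 0.17 ± 0.18 at stage 1 (edgeR adjusted p = 0.505), 0.40 ± 0.16 at stage 2 (edgeR adjusted p = 0.0513), 0.31 ± 0.17 at stage 3 (edgeR adjusted p = 0.136) and -0.03 ± 0.16 at stage 4 (edgeR adjusted p = 0.959). At stage 2 other settings moved it past the threshold: it was 0.42 with DESeq2 (adjusted p = 0.0422) and 0.42 with the replicate block in the libraries of that stage, whose same-numbered libraries deviated together (edgeR adjusted p = 0.00910). Leaving out SAM stage 2 replicate 1 gave 0.53 at stage 2 (edgeR adjusted p = 0.0256), and leaving out SAM stage 3 replicate 2 gave 0.53 at stage 3 (edgeR adjusted p = 0.0214).

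The group means of EMF1 ran from 22.1 ± 2.39 CPM (SD, n = 3) in AB stage 2 and 20 ± 1.65 CPM (n = 2) in AB stage 1 to 17.7 ± 2.38 CPM in SAM stage 1, 16.7 ± 3.65 CPM in SAM stage 2, 15 ± 1.95 CPM in AB stage 3, 14.2 ± 2.23 CPM in SAM stage 4, 13.9 ± 0.533 CPM in AB stage 4 and 12.1 ± 2.51 CPM in SAM stage 3. All neighbours in this order had overlapping libraries.

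**Figure D2:**
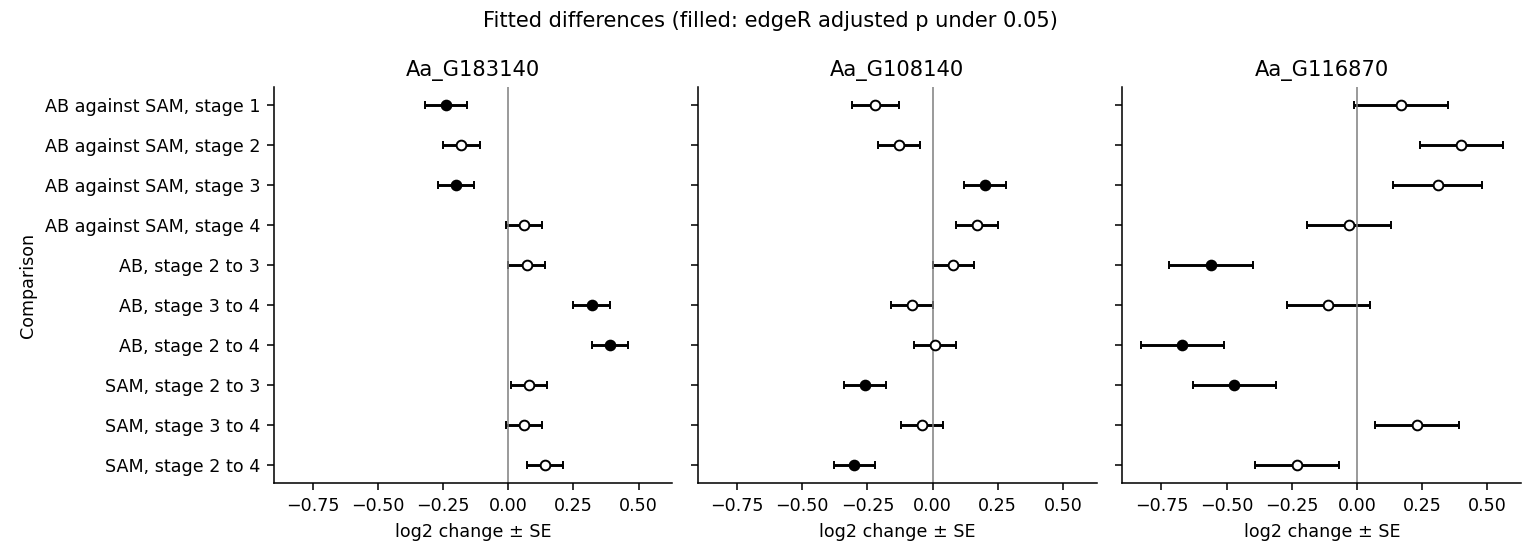
Log2 differences of VRN5 (Aa_G183140), VRN1 (Aa_G108140) and EMF1 (Aa_G116870) with their SE, on a shared axis, for AB against SAM at each stage and for the steps from stage 2 on within each tissue. Filled points passed the edgeR threshold. For VRN5 these are the AB steps to the last stage, at 0.32 and 0.39. AB against SAM, VRN5 is also filled at stage 1 (-0.24) and stage 3 (-0.20). For VRN1 they are the SAM steps from stage 2, at -0.26 and -0.30, and AB against SAM at stage 3 (0.20). For EMF1 they are the AB steps from stage 2 (-0.56 and -0.67) and its SAM step to stage 3 (-0.47).

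Counts of calls over the 3 genes have to be read against the share of all genes called in the same comparison. The shares given are those of edgeR, and none was computed for DESeq2. At stage 1, 1 of 3 was called between the tissues, where 32.8% of all genes tested were, and DESeq2 called 0. At stage 2, 0 of 3 were called by edgeR, where 37.4% of all genes were, and DESeq2 called 1. An unadjusted edgeR p under 0.05 was reached by 2 of 3, and by 9793 of the 21414 genes tested. At stage 3, 2 of 3 were called, in opposite directions, against 44.2% of all genes, and DESeq2 called 1, VRN1. At stage 4, 0 of 3 were called by edgeR against 3.47% of all genes, and 0 by DESeq2. An unadjusted edgeR p under 0.05 was reached by 1 of 3, and by 3485 of the 21414 genes.

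For the steps from stage 1 to 2, 0 of 3 were called by edgeR or DESeq2 in either tissue. By edgeR 1.16% of all genes were called in the AB and 7.58% in the SAM. An unadjusted edgeR p under 0.05 was reached by 0 of 3, against 2809 of the 21414 genes in the AB and 4783 in the SAM. From stage 2 to 3, EMF1 was the 1 called in the AB (22.2% of all genes), and VRN1 and EMF1 were the 2 called in the SAM (24.3% of all genes). From stage 3 to 4, VRN5 was the 1 called in the AB (47.3% of all genes). In the SAM 0 were called by edgeR (9.18% of all genes) or DESeq2. There 0 of 3 had an unadjusted edgeR p under 0.05, against 5065 of the 21414 genes. For stages 2 to 4, VRN5 and EMF1 were the 2 called in the AB (51.1% of all genes), and VRN1 was the 1 called in the SAM (33.7% of all genes). Of the 9 differences between the tissues in a step, 0 were called by edgeR or DESeq2, and 2 had an unadjusted p under 0.05. The share of all genes called there was 0.0981%, 4.66% and 29.8% for the 3 steps. An unadjusted edgeR p under 0.05 was reached by 1555, 4517 and 8685 of the 21414 genes. The comparisons from stage 2 share their stage 2 libraries.

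The gene model that rose strongly in the cold was another member of the VIN3 family. A description from this family is carried by 5 genes, of which 4 were tested. Aa_G307430, described as a vernalization5 vin3-like protein, lies on chromosome 8 at 39161705 to 39164065 and has no alias. The coding length of its model, 1382 bp, is not a whole number of codons. Its neighbours carry the codes At5g57370 and At5g57390, whose genes flank VIN3 in Arabidopsis. This is a description of its position, and the identity of the gene was not tested.

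Aa_G307430 was at 1.41 and 0.848 CPM in AB stage 1 and at 0.719, 0.504 and 0.652 CPM in SAM stage 1. At stage 2 it was 1.10, 1.40 and 1.33 CPM in the AB and 0.426, 0.763 and 0.907 CPM in the SAM. Both tissues were thus low before the cold, with 8 to 20 reads per library. The AB libraries were above those of the SAM at both stages, but the differences were not called. They were 0.84 ± 0.45 and 0.87 ± 0.39 on the log2 scale (edgeR adjusted p = 0.157 and 0.0846). After 4 weeks of cold it was 2.31, 3.0 and 4.45 CPM in the AB and 2.67, 3.86 and 6.45 CPM in the SAM, and after 7 weeks 7.97, 14.1 and 9.75 CPM in the AB and 10.5, 9.34 and 9.38 CPM in the SAM. All libraries of stage 3 were above those of stage 2, and all of stage 4 above those of stage 3 in the same tissue.

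Over the whole cold, Aa_G307430 rose by 3.05 ± 0.32 on the log2 scale in the AB (edgeR adjusted p = 1.36e-07) and by 3.80 ± 0.34 in the SAM (edgeR adjusted p = 3.50e-08), folds of 8.28 and 13.9. VRN5 (Aa_G183140), the member of the same family described above, changed over the same interval by 0.39 ± 0.07 in the AB, and its difference in the SAM was 0.14 ± 0.07. The differences between the tissues in the steps of Aa_G307430 were not called, at -1.26 ± 0.49 for stage 2 to 3 (edgeR adjusted p = 0.142) and 0.51 ± 0.40 for stage 3 to 4 (edgeR adjusted p = 0.358). The SAM step from stage 3 to 4, of 1.19 ± 0.28 (edgeR adjusted p = 0.00948), was not called without SAM stage 3 replicate 1, at 0.93.

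Among the other relatives tested, none was called higher at stage 4 than at stage 2. Aa_G368090, aliased to At4g30200 (VEL1, a PHD finger protein of the family), was the most abundant, at 101.1 to 144.8 TPM, and its stage 2 to 4 differences were not called in either tissue. Aa_G190150, described like Aa_G307430, fell in the AB from stage 2 to stage 4 by 2.49 ± 0.47 on the log2 scale (edgeR adjusted p = 0.000176), from 4.57 ± 1.08 to 0.808 ± 0.309 CPM (SD, n = 3). It had only 4 to 84 reads per library, and its biological coefficient of variation was 34.6%. Its SAM difference between these stages was -1.06 ± 0.47 and was not called (edgeR adjusted p = 0.0896). Aa_G185830 had 34 reads in all, with 6 libraries at 0, and was not tested. Aa_G579940 is called FLC here after its description, for the gene on which these proteins act in Arabidopsis. Its model has no alias and a coding length of only 180 bp, and its identity was not tested. FLC (Aa_G579940) fell over the same interval by 1.94 ± 0.22 in the AB and by 3.91 ± 0.25 in the SAM (edgeR adjusted p = 3.38e-07 and 3.66e-10).

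**Figure D3:**
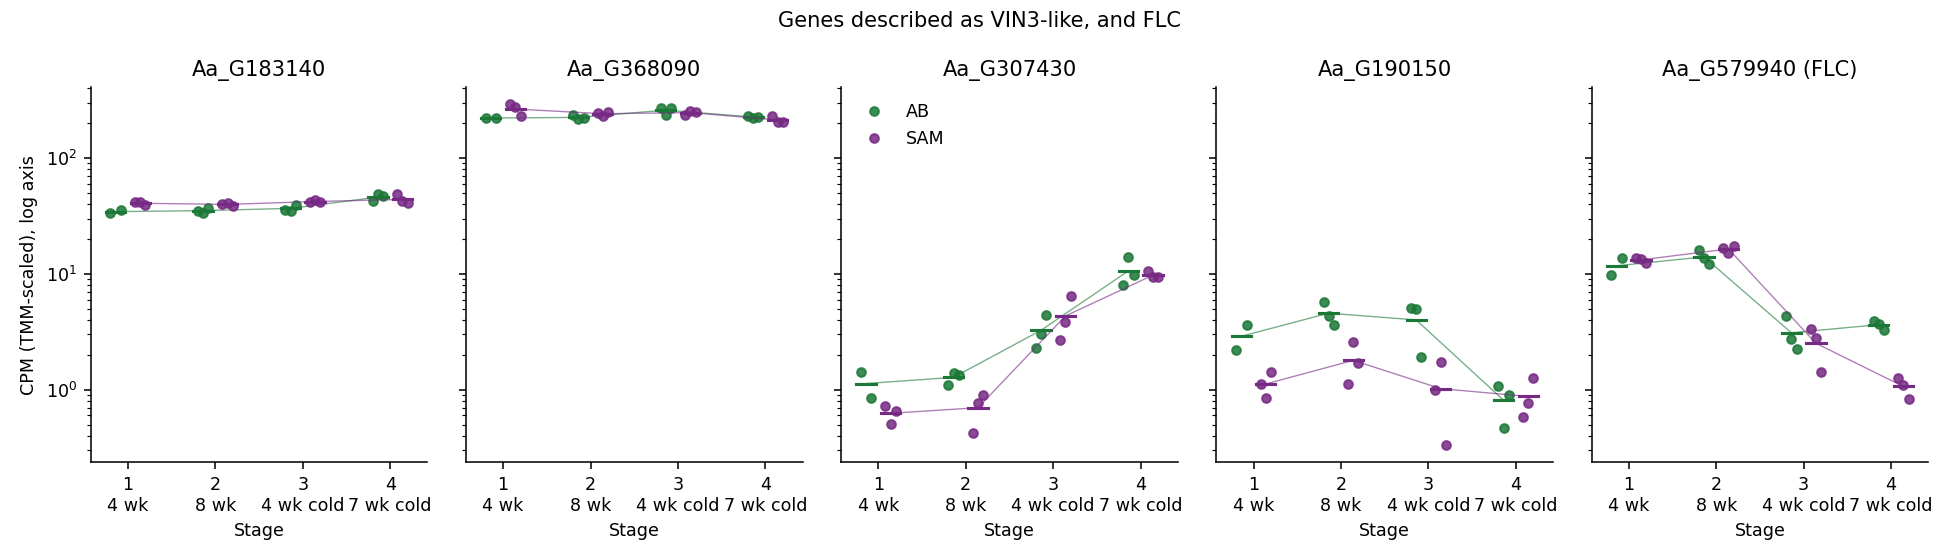
Level of the 4 tested genes described as VIN3-like, and of FLC, in each library, in TMM-scaled CPM on a shared log axis, by stage; points are libraries (green AB, purple SAM) and bars group means. Aa_G307430 climbs from 1.27 to 10.6 CPM in the AB and from 0.699 to 9.75 CPM in the SAM between stages 2 and 4, while VRN5 (Aa_G183140) and Aa_G368090 stay within narrow bands.

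A second gene carries the description and the alias of EMF1, and it did not follow the first. Aa_G539360 lies on chromosome 8 at 43949297 to 43953075 on the minus strand, with 5 exons and a coding length of 3273 bp. Reads that match both genes could be split between them in a way the sources used here do not give, so the levels of both are uncertain to that extent. Aa_G539360 was at 27 and 31.1 CPM in AB stage 1 and at 44.4, 42.4 and 38.9 CPM in SAM stage 1. At stage 2 it was 26.4, 28.6 and 27.8 CPM in the AB and 41.8, 40.9 and 31.5 CPM in the SAM. At stage 3 it was 26.6, 24.4 and 33.0 CPM in the AB and 46.4, 49.4 and 44.1 CPM in the SAM. At these 3 stages all AB libraries were below all SAM libraries. At stage 4 it was 32.8, 33.5 and 39.9 CPM in the AB and 41.5, 39.4 and 40.9 CPM in the SAM.

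Aa_G539360 was lower in the AB than in the SAM at stages 1, 2 and 3, with log2 differences of -0.53 ± 0.13, -0.47 ± 0.11 and -0.74 ± 0.11 (edgeR adjusted p = 0.00248, 0.00217 and 2.36e-05). The stage 1 call was lost without AB stage 1 replicate 1, at -0.42. In the AB it rose from stage 2 to stage 4 by 0.36 ± 0.11 (edgeR adjusted p = 0.0103), while EMF1 (Aa_G116870) fell by 0.67 ± 0.16 over that interval. The rise was not called without AB stage 4 replicate 3, at 0.26.

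Of the reads of both genes, Aa_G116870 took 40.8 ± 4.37% (SD, n = 2) in AB stage 1 and 29.8 ± 3.89% (n = 3) in SAM stage 1. At stage 2 its share was 44.4 ± 3.59% in the AB and 30.2 ± 1.69% in the SAM, and at stage 3 it was 35.0 ± 4.95% and 20.4 ± 2.50%. The AB and SAM libraries did not overlap at these stages. At stage 4 the shares were 28.3 ± 2.33% in the AB and 25.9 ± 2.96% in the SAM, with overlapping libraries. The AB minus SAM difference was 11, 14.2, 14.6 and 2.42 percentage points at stages 1 to 4. Their mean was 10.5 points. The share was chosen after the levels of both genes had been seen, so it is given as a description with no test.

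**Figure D4:**
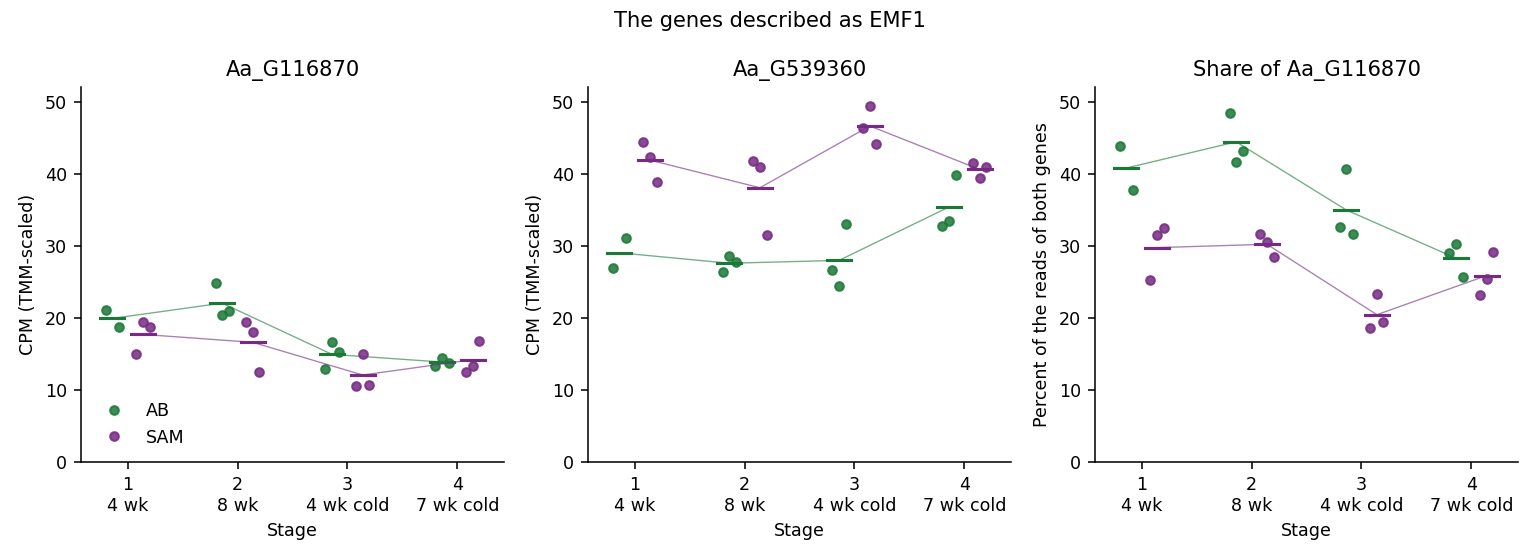
The genes described as EMF1: level of Aa_G116870 and of Aa_G539360 in each library in TMM-scaled CPM, and the percentage of the reads of both that belong to Aa_G116870, by stage, on axes from 0. Points are libraries (green AB, purple SAM) and bars are group means; the share in the AB falls from 44.4% at stage 2 to 28.3% at stage 4, and the AB lies above the SAM at stages 1 to 3.

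Around the 3 genes, 56 genes of 7 lists were found by description or alias, and 51 were tested. From stage 2 to stage 4, 19 of the 51 rose and 9 fell in the AB, against 24.5% and 26.6% of all genes tested. In the SAM 8 rose and 6 fell, against 16.9% and 16.8% of all genes. The median log2 change over the 51 genes was 0.16 in the AB and 0.00 in the SAM, where over all genes it was -0.002 and -0.006. Without SAM stage 2 replicate 3 the SAM count of genes that rose was 5. Members of the lists described above are counted here again.

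Among the B3 genes related to VRN1, 1 of 5 tested rose and 3 fell in each tissue from stage 2 to stage 4. Of all genes tested, 24.5% rose and 26.6% fell in the AB, and 16.9% and 16.8% in the SAM. Aa_G513220, aliased to the locus of RTV1, a DNA-binding relative of VRN1, rose in the AB by 0.43 ± 0.07 on the log2 scale (edgeR adjusted p = 3.26e-05). Aa_G447060 and Aa_G39130, both described as B3 proteins, fell in the SAM by 1.39 ± 0.15 and 1.30 ± 0.15 (edgeR adjusted p = 1.11e-06 and 1.61e-06), where VRN1 (Aa_G108140) fell by 0.30 ± 0.08. They also fell in the AB, by 0.63 ± 0.15 and 0.84 ± 0.15 (edgeR adjusted p = 0.00187 and 9.25e-05). Aa_G376660, of the same description, fell in the AB by 1.37 ± 0.30 and rose in the SAM by 1.27 ± 0.33 (edgeR adjusted p = 0.000701 and 0.00473).

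Of the core of PRC2, the complex that places the repressive mark H3K27me3, 2 of 6 tested genes rose in the AB from stage 2 to stage 4. In the SAM 1 rose, and 0 fell in either tissue. Among all genes, 24.5% rose in the AB and 16.9% in the SAM, and 26.6% and 16.8% fell. MSI1, a WD40 subunit (Aa_G31430), rose in the AB by 0.47 ± 0.08 (edgeR adjusted p = 6.58e-05). EMF2, a zinc finger subunit (Aa_G83980), rose by 0.16 ± 0.06 in the AB and by 0.19 ± 0.06 in the SAM (edgeR adjusted p = 0.0295 and 0.0210). The AB call of EMF2 ended when replicate 1 or 3 of stage 2 was left out, at 0.15 and 0.15, or replicate 1 or 2 of stage 4, at 0.17 and 0.14. The SAM call ended when replicate 3 of stage 2 was left out, at 0.15, or replicate 1 or 3 of stage 4, at 0.16 and 0.19.

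The next list holds EMF1 and genes named or described as RING finger genes of PRC1, a complex that marks histone H2A. It also holds LHP1 (Aa_G325610), a reader of H3K27me3. In the AB 4 of its 13 tested genes rose and 3 fell from stage 2 to stage 4, against 24.5% and 26.6% of all genes. EMF1 (Aa_G116870) was among those that fell. Aa_G446610, described as DRIP2-like, rose there by 0.88 ± 0.21 (edgeR adjusted p = 0.00150). RING1A (Aa_G95890) and BMI1B (Aa_G22450) also rose there, by 0.60 ± 0.11 and 0.46 ± 0.08 (edgeR adjusted p = 8.07e-05 and 7.90e-05). RING1B (Aa_G134660) was not called, at 0.16 ± 0.08 (edgeR adjusted p = 0.0763). Aa_G28200 and Aa_G451100, described only as RING1-like ligases, fell by 0.65 ± 0.11 and 0.60 ± 0.07 (edgeR adjusted p = 3.97e-05 and 6.60e-07). Whether these ligases belong to PRC1 was not tested. In the SAM 1 of the 13 rose and 1 fell, against 16.9% and 16.8% of all genes. There Aa_G80170, described as DRIP2, rose by 0.59 ± 0.22 (edgeR adjusted p = 0.0436). LHP1 (Aa_G325610) fell there by 0.24 ± 0.08 (edgeR adjusted p = 0.0196).

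A further list holds genes that activate FLC in Arabidopsis and others placed there by description only, such as frigida-like. Of its 12 genes, 7 rose and 1 fell in the AB, and 2 rose and 1 fell in the SAM. Of all genes tested, 24.5% rose and 26.6% fell in the AB, and 16.9% and 16.8% in the SAM. VIP3 (Aa_G301280) and VIP4 (Aa_G94980), components of the PAF1 complex of transcribing polymerase, rose in the AB by 0.42 ± 0.07 and 0.35 ± 0.07 (edgeR adjusted p = 5.86e-05 and 0.000205), and Aa_G239260, described as a component of that complex, by 0.42 ± 0.08 (edgeR adjusted p = 0.000185). FES1 (Aa_G438730), a partner of FRIGIDA, fell by 0.41 ± 0.08 in the AB and by 0.58 ± 0.08 in the SAM (edgeR adjusted p = 0.000123 and 5.14e-06). Of the autonomous pathway, which lowers FLC, 3 of 10 rose in the AB and 2 in the SAM, and 0 fell, against those same shares. FVE (Aa_G143510), a WD40 protein, rose by 0.77 ± 0.09 and 0.45 ± 0.09 (edgeR adjusted p = 4.53e-07 and 0.000500), and Aa_G451540, described as FPA, an RNA-binding protein, by 0.78 ± 0.13 and 0.70 ± 0.13 (edgeR adjusted p = 5.21e-05 and 0.000261).

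The genes closest to each of the 3 in pattern were ranked by Pearson's r of log2 CPM over the 23 libraries, among genes with an informative description. These libraries share tissue, stage and depth, and the values are a description. For VRN5 (Aa_G183140) they were Aa_G414980, an alanyl-tRNA synthetase (r = 0.92), Aa_G90650, described as argonaute 4, which guides DNA methylation by small RNA (0.92), Aa_G70880, a methyl-CpG-binding protein (0.90), Aa_G31560, an F-box protein (0.90), and Aa_G62950, an LST8 homolog (0.89). For VRN1 (Aa_G108140) they were Aa_G616430, described as like DEMETER, a DNA glycosylase that removes methylated cytosine (0.86), and Aa_G12230, a PDR-type transporter (0.85). A cytochrome P450 gene (Aa_G672590), a RAV-like B3 gene (Aa_G2320) and a DnaJ gene (Aa_G251120) followed, each at 0.80. For EMF1 (Aa_G116870) they were Aa_G188360, a calcium ATPase (0.86), Aa_G162830, an RGPR-related gene (0.86), Aa_G219100, an acyltransferase with a PHD-type zinc finger (0.85), Aa_G245600, a histidine-containing phosphotransfer gene (0.84), and Aa_G55490, a receptor-like kinase (0.84).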

How the data were processed

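The members and the gene lists were chosen with earlier results of these data known. Counts are the authors' deposited counts of mapped reads per gene, and TPM values were also deposited by the authors, per the file headers. For 4 labelled comparisons the authors also deposited a log2 fold change and a p-value adjusted by false discovery rate, and those of 1 gene are quoted. A further 46 columns of values by library and 6 unlabelled comparison columns were not used. How reads were aligned and counted, and whether by strand, is not given in the sources used here. Per the labels' protocols, libraries were made from total RNA by standard Illumina protocols. Per the file headers, gene models were moved to the version 5 assembly from version 4 by protein alignment.

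Counts were fitted with edgeR 4.0.16 in R 4.3.3 (filterByExpr by group with minimum count 10 and minimum total 15, TMM factors, robust quasi-likelihood), with 1 coefficient per tissue and stage over all 23 libraries. The Benjamini-Hochberg adjustment ran over all 21414 genes tested, with a threshold of 0.05. The SE is the size of the change divided by the square root of F. Alternatives were median-ratio (RLE) factors, total counts only, no filter on low counts, DESeq2 1.42.0, a replicate block, the compared groups only, and each library left out. Named genes are the 3 genes, their 5 closest in pattern, and in each list up to 4 genes of largest called change from stage 2 to 4. RING1A, RING1B, BMI1B, LHP1 and Aa_G80170 were named beyond this rule. Genes added to lists by alias, and Aa_G539360 as a partner in the share of reads, were chosen after the files were seen.

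Replicates are separate pools per the labels. Replicate libraries differed by more than sampling noise, the smallest chi-square ratio being 4.01. Deviations of same-numbered libraries from their group means were correlated in 12 comparisons. Every pair exceeded 0.1 in 2 of them, AB against SAM at stage 2 (r from 0.16 to 0.25) and at stage 3 (r from 0.13 to 0.19), and the pairing there comes from this check of the data and not from the labels.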

Additional observations from a re-analysis of the deposited data

Results flagged for a closer look

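The step from stage 3 to stage 4 differed between buds and meristem, by a test of the difference itself, in 4 of 6 related genes looked at beside the 3 genes. These 6 were not picked from the lists by a rule. The difference in this step is not given for the other listed genes. It was not called for Aa_G307430 (0.51, edgeR adjusted p = 0.358) or Aa_G368090 (0.01, edgeR adjusted p = 0.949), nor for any of the 3 genes. For FLC (Aa_G579940) the AB minus SAM difference of the log2 change was 1.47, with an edgeR adjusted p of 0.00484, and FLC fell in the SAM by 1.24 ± 0.27 in this step while the AB difference was 0.23. For Aa_G539360, the second gene described as EMF1, it was 0.54 (edgeR adjusted p = 0.0128). For Aa_G513220, aliased to the RTV1 locus, it was 0.33 (edgeR adjusted p = 0.0170). For Aa_G190150, described as VIN3-like, it was -2.01 (edgeR adjusted p = 0.0326), with AB levels falling to 0.808 CPM. That level rests on 7 to 17 reads per library in AB stage 4. The share of all genes called for the difference in this step was 29.8%. Because the 6 genes were picked by no rule, the count of 4 cannot be weighed against that share. AP1 was at 1.06 to 2.20 CPM in AB stage 4 and 20.3 to 51.3 CPM in SAM stage 4, and its part in these values was not tested.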

How the results depend on the processing

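Of 591 values of the 45 comparisons of the 3 genes under alternatives, 517 kept their direction and side of the threshold, 34 lost a call, 11 gained one and 29 changed sign. In 23 of the 45 comparisons no alternative changed direction or call. The cause of the other changes was not tested. A difference that was not called at this depth is not shown to be absent.

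For VRN5 (Aa_G183140), AB against SAM at stage 1 was not called in the compared groups only (-0.21), with DESeq2 (-0.21) or with total counts only (-0.20), and at stage 2 it was called with no filter on low counts (-0.20). At stage 3 it was not called in the compared groups only (-0.18), there with the replicate block (-0.18), with DESeq2 (-0.18), with no filter (-0.18), with RLE factors (-0.17) or with total counts (-0.14). The difference of the tissues in the stage 2 to 3 step was 0.02 with no filter and 0.03 with total counts, against -0.02. With single libraries left out, AB against SAM ran from -0.30 to -0.18 at stage 1 and from -0.24 to -0.15 at stage 3. The tissue difference ran from -0.06 to 0.05 for the stage 2 to 3 step and from 0.18 to 0.31 for the stage 3 to 4 step. The AB step from stage 1 to 2 ran from -0.01 to 0.07, and the SAM step from stage 3 to 4 from -0.01 to 0.11.

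For VRN1 (Aa_G108140), AB against SAM at stage 1 was called with the replicate block in all libraries, at -0.25 (edgeR adjusted p = 0.0272), where same-numbered libraries did not deviate together. At stage 3 it was not called in the compared groups only (0.22) or there with the replicate block (0.23). The SAM step from stage 2 to 3 was not called in the compared groups only (-0.26). The AB change from stage 2 to 4, fitted at 0.01, was -0.01 with DESeq2, -0.01 with RLE factors and 0.00, below 0 before rounding, with total counts. With single libraries left out, AB against SAM at stage 3 ran from 0.14 to 0.28, the SAM step from stage 2 to 3 from -0.31 to -0.17, the AB change from stage 2 to 4 from -0.02 to 0.04, and the tissue difference in the stage 3 to 4 step from -0.11 to 0.03. The AB step from stage 1 to 2 ran from -0.01 to 0.07, and the SAM steps from stage 1 to 2 and 3 to 4 from -0.10 to 0.00 and from -0.12 to 0.01.

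For EMF1 (Aa_G116870), AB against SAM at stage 2 was called with DESeq2 (0.42), RLE factors (0.42), total counts (0.41) and, in the compared groups only, the replicate block (0.42). The SAM step from stage 2 to 3 was not called in the compared groups only (-0.47). With single libraries left out, AB against SAM ran from 0.24 to 0.53 at stage 2, from 0.22 to 0.53 at stage 3 and from -0.12 to 0.10 at stage 4. The stage 2 to 3 step ran from -0.65 to -0.45 in the AB and from -0.65 to -0.34 in the SAM, and its tissue difference from -0.22 to 0.11. The SAM step from stage 1 to 2 ran from -0.21 to 0.08. The replicate block in all libraries changed no other call of the 3 genes. The mean difference in the share of EMF1 reads was 9.77 to 11.3 points with single libraries left out. The count of list genes that rose in the SAM from stage 2 to 4 ran from 5 to 8.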
